A study of Rattus norvegicus with 4 samples.

Results

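The genes described here make, sense or answer interferon in rat macrophages. They are 53 listed genes: 2 interferons, 4 receptor chains, 3 Janus kinases, 4 STAT transcription factors, 8 interferon regulatory factors (IRFs), 9 sensors of foreign nucleic acid with their adaptors, 20 interferon-induced effectors and 3 feedback inhibitors. Each was matched by symbol to the array through the accession of its probes and the RefSeq gene table of the rat assembly GRCr8. Of the 53 genes, 50 had a probe that could be named, out of 16581 named genes on the array. The interferon receptor chain Ifnar2, the DNA sensor Cgas and the effector Xaf1 had no named probe and have no value here.

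Interferons are secreted proteins that bind paired receptor chains on the cell surface. Janus kinases on those chains then phosphorylate STAT proteins, which enter the nucleus, alone or with IRF9, and switch on genes that block viruses. In macrophages, which meet microbes first in the lung, sensors of viral RNA and DNA start interferon production through IRF3 and IRF7, and USP18 and the SOCS proteins dampen the response.

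RNA was measured in NR8383, a line of alveolar macrophages grown from rat lung washings, on one-colour Agilent arrays. All 4 samples belonged to 1 group, cells held with water for 4 h under a condition tagged ALI, an abbreviation that the labels do not explain. No interferon, virus or other agent is named in the labels of any sample, all cells had been through 20 passages, and they had been seeded for 48 h. The design text counts the samples as biological replicates without saying whether they were separate cultures, so the p-values below measure the spread between these 4 samples, which may be partly technical. With 1 group there was no comparison between conditions, and as an immortal line grown in serum the cells stand in for a lung macrophage only in part.

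The arrays resembled each other in quality. The share of gene spots that Agilent's software flagged as well above background was 49.2% to 50.3%, no gene spot was saturated, and all 4 arrays lay on 1 slide with 1 scan date. The values below are log2 intensities relative to the 75th percentile of the same array, so 0 stands for that percentile. Probes differ in affinity, so a value follows 1 gene across the arrays and does not rank one gene above another. Of 8 macrophage markers, 7 were detected, among them Cd68, Csf1r and Spi1, and the scavenger receptor Marco was not. T cell (Cd3e, Cd3g), NK cell (Ncr1), neutrophil (S100a8, S100a9, Csf3r), epithelial (Epcam, Sftpc), fibroblast (Col1a1, Pdgfra) and endothelial (Kdr) markers did not pass the background flag on any array. Tcf4, a gene used to mark plasmacytoid dendritic cells that other cells also express, was detected at 0.18 ± 0.17 (SD, n = 4). In a bulk sample, fewer cells of a type and less RNA per cell cannot be told apart.

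Most promoters of the induced effectors held the letters of the element to which STAT and IRF proteins are known to bind after interferon. A promoter window, running from 250 bases before to 50 bases after the gene start, was held in the RefSeq table (GRCr8) for 40 of the 53 genes. The core of the interferon-stimulated response element (ISRE), searched on either strand as GAAA, any 2 bases and GAAA again, was present in 17 of the 40 windows (42.5%), against 1312 of all 33469 windows (3.92%). It was found in 13 of 15 effector windows, in 1 of 7 IRF windows (Irf7), in 2 of 5 windows of sensors and adaptors and in 1 of 2 feedback windows, and in none of the windows of the 2 interferons, 4 receptor chains, 4 STATs and 1 kinase. All 17 genes had a match that began within 150 bases before the start. The gamma-activated site (GAS), searched as TTCNNNGAA, which reads the same on both strands, was in 9 of the 40 windows (22.5%), against 2970 of all windows (8.87%). A match is a description of the letters and not a measured site, and interferon-induced genes are the genes from which the element is known.

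The window of Bst2 is printed because its spread alone passed the test described below, and that of Irf7 because it alone among the IRFs held an ISRE core. The 250 bases before each gene start are given in the sense of the gene, from the RefSeq promoters on GRCr8, with the matches to ISRE and GAS in capitals. Bst2 holds 2 overlapping ISRE cores, which begin 131 bases before the start and overlap a GAS match. Irf7 holds 1 ISRE core on the opposite strand, 69 bases before the start.
Bst2, GRCr8 chr16:18254968-18255217, minus strand: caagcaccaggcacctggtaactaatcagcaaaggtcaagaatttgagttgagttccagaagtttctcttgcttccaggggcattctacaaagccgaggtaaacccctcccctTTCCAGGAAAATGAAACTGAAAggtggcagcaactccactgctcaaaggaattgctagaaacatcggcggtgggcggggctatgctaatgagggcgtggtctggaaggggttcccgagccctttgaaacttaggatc
Irf7, GRCr8 chr1:205800024-205800273, minus strand: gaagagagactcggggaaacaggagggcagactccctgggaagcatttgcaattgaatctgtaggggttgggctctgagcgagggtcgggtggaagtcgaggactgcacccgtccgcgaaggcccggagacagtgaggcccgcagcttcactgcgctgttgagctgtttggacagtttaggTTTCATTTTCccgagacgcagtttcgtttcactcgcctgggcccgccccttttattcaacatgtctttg

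Overlapping ISRE cores were rare among all promoters. They occurred in 37 of 33469 windows (0.111%) and in 4 of the 40 windows of the interferon genes (10%), those of Bst2, Oas1a, Oas1b and Socs1. The next lines show the matches of the other 3 of these genes, of effectors and the sensor Eif2ak2 detected on all arrays, and of genes that were not detected or detected only on some arrays, so that the same element can be seen on either side of the detection limit. Each match is in capitals with 10 bases of flank on each side, read on the strand that carries the GAAA form. The 16 capitals of Oas1a and Oas1b are identical.
Oas1a, GRCr8 chr12:41330415-41330450, plus strand: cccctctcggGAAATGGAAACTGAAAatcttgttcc
Oas1b, GRCr8 chr12:41395886-41395921, minus strand: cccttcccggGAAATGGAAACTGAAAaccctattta
Socs1, GRCr8 chr10:5389457-5389492, plus strand: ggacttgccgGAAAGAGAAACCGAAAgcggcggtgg
Gbp2, GRCr8 chr2:234005686-234005715, minus strand: ttaagacaatGAAAGTGAAActaaaaaact
Ifit3, GRCr8 chr1:241527272-241527301, minus strand: gtggaaactaGAAACTGAAAcagacttaaa
Isg20, GRCr8 chr1:142239957-142239986, plus strand: taatgaaccaGAAACTGAAActaaaacggc
Rsad2, GRCr8 chr6:48788248-48788277, plus strand: tctgttttctGAAAATGAAAgttgaaccag
Eif2ak2, GRCr8 chr6:21941128-21941157, plus strand: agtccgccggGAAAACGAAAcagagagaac
Ifih1, GRCr8 chr3:67684008-67684037, minus strand: gaagagaatcGAAACAGAAAccgatgtgtg
Ifitm3, GRCr8 chr1:205541783-205541812, minus strand: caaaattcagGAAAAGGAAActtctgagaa

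**Figure D1:**
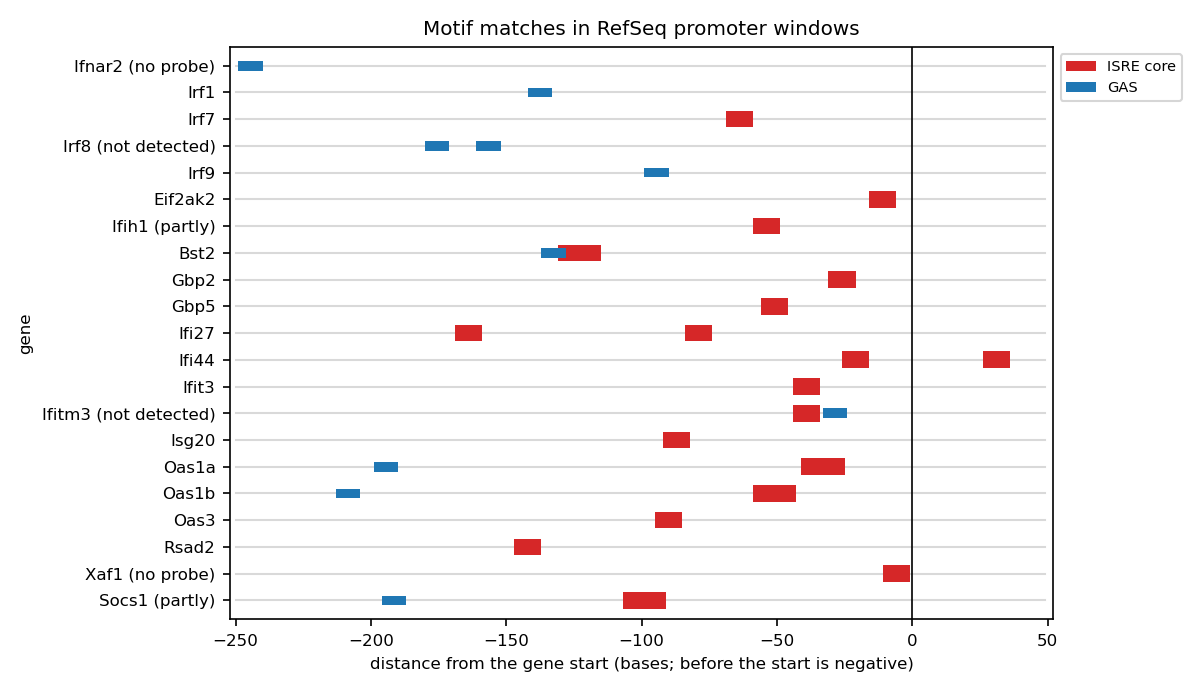
Positions of the ISRE core (red) and GAS (blue) in the promoter windows of the 21 interferon genes that had a match, by distance from the gene start in bases. The ISRE cores lie close to the start, all 17 genes having one that begins within 150 bases before it; names in brackets give genes that were not, or only partly, detected or had no named probe.

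Detection here asks that some probe of the gene pass the background flag on all 4 arrays. By this rule 41 of the 50 genes (82%) were detected, against 51.0% of all named genes. A further 3 were above background on 1 to 3 arrays (6.43% of all named genes) and 6 on none (42.6% of all named genes). By role, 0 of 2 interferons, 3 of 3 measured receptor chains, 3 of 3 kinases, 3 of 4 STATs, 7 of 8 IRFs, 6 of 8 sensors and adaptors, 17 of 19 effectors and 2 of 3 feedback genes were detected. All 9 genes that were not or only partly detected had a single named probe, so each of these calls rests on that probe.

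**Figure D2:**
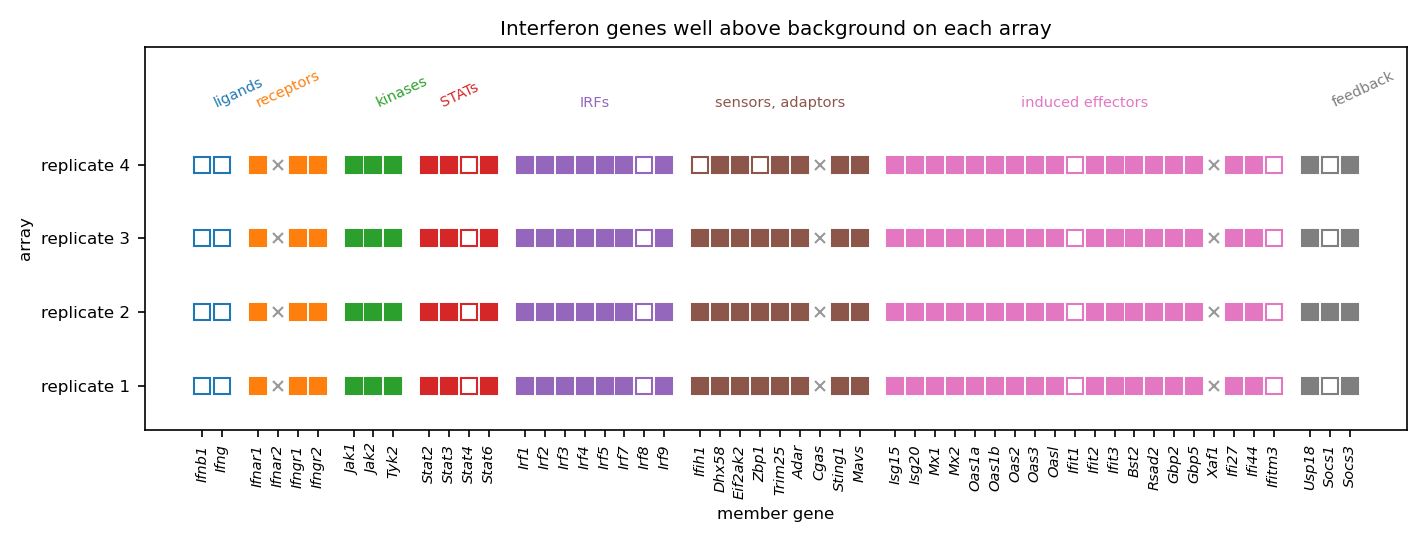
Detection of each interferon gene on each array. Filled squares mark an array on which at least 1 probe was well above background, open squares an array on which none was, and crosses the 3 genes with no named probe. The interferons are open on all 4 arrays, and 17 of 19 measured effectors are filled on all 4.

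Neither interferon was detected. Ifnb1, the interferon beta that macrophages release on sensing viral nucleic acid, gave intensities of 3.96, 6.17, 4.14 and 3.72 on replicates 1 to 4. Ifng, the gamma interferon made mainly by T cells and NK cells, gave 4.10, 4.50, 4.27 and 3.78. These intensities lie near the median of the negative control spots, which was 4.10 to 4.75, and under the lowest spot called well above background on each array, which was 18.1 to 21.5. Both signals were thus below what these arrays can measure. Each gene had 1 named probe, so a low transcript level and a probe that does not respond cannot be told apart. The readings do not show that the transcripts were absent.

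The receptor chains and kinases were present on every array. Ifnar1, a chain of the type I interferon receptor, was at -1.73, -1.80, -1.29 and -1.58 on replicates 1 to 4 (-1.60 ± 0.23, SD, n = 4). Ifngr1, the ligand-binding chain of the interferon gamma receptor, was at 2.55, 2.78, 2.62 and 2.24, lowest on replicate 4. Its partner Ifngr2 was at 1.12, 1.16, 1.04 and 0.98, a span of 0.18 from the lowest to the highest array. Jak1, the kinase that serves both receptor types, was at 3.35, 3.34, 3.28 and 3.46. Jak2, the kinase of the gamma receptor, was at -1.94, -2.18, -1.92 and -2.00. Tyk2, the kinase of the type I receptor, was at -2.38, -2.07, -2.23 and -2.64. None of these 6 genes passed the test of spread between arrays (smallest adjusted p = 0.849, for Ifngr1, limma variance test).

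Of the STATs, 3 were detected and 1 was not. Stat2, which acts in the type I response, was at 2.97, 2.87, 2.63 and 2.87. Stat3, which answers cytokines of the interleukin 6 family, was at 2.19, 2.13, 1.81 and 2.18, with replicate 3 apart from the other 3 arrays (adjusted p = 0.995, limma variance test). Stat6, which answers interleukin 4, was at -1.05, -1.06, -1.11 and -0.98. Stat4, which answers interleukin 12 in T cells and NK cells, was not detected, with intensities of 6.39, 13.4, 4.38 and 3.84.

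Of the 8 IRFs, 7 were detected. Irf3, which starts interferon beta transcription once a sensor fires, was at 1.10, 1.18, 1.03 and 1.25. Irf5, a factor of inflammatory macrophages, was at 1.78, 1.90, 1.78 and 1.82, a span of 0.12. Irf9, which joins STAT2 on the DNA of type I target genes, was at 0.59, 0.49, 0.27 and 0.48. Irf1, an early target of interferon gamma, was at 1.25, 1.08, 0.98 and 1.04. Irf2, which competes with IRF1 for its sites, was at 1.03, 0.84, 1.07 and 1.42, highest on replicate 4. Irf4, which acts in alternatively activated macrophages, was at -0.93, -0.84, -0.83 and -0.79. Irf8, which guides the development of monocytes and macrophages, was not detected, with intensities of 5.28, 4.73, 7.92 and 5.24.

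Irf7, the factor that amplifies interferon production and is itself induced by interferon, had the widest span of the IRFs. It was at 1.03, 0.80, 0.84 and 0.33 on replicates 1 to 4, so replicate 4 lay under the others and the span was 0.70, or 1.63-fold. Without replicate 4 the span was 0.23. Its unadjusted p was 0.0254 and its adjusted p 0.659 (limma variance test), which does not pass the threshold of 0.05.

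Among the sensors of RNA, Dhx58, a regulator of the RIG-I family, was at -0.15, -0.17, -0.40 and -0.47. Eif2ak2, the kinase PKR that halts translation on double-stranded RNA, was at -1.69, -1.68, -1.76 and -1.76, a span of 0.08, while its dimmer probe spanned 0.55. Adar, which edits double-stranded RNA, was at -4.26, -4.38, -4.69 and -4.67. Both adaptors were detected, Mavs, which relays RNA sensing at mitochondria, at 0.65, 0.65, 0.51 and 0.77, and Sting1, which relays DNA sensing, at -1.96, -2.09, -2.00 and -1.96.

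Both partly detected sensors failed the background test on the same array. Ifih1, the sensor MDA5 of long double-stranded RNA, had intensities of 43.7, 30.1, 37.6 and 17.1. Zbp1, a sensor of left-handed nucleic acid that can start cell death, had 29.0, 29.1, 38.3 and 13.9. Each was well above background on replicates 1 to 3 and not on replicate 4, so its level on replicate 4 is known only as a bound. Replicate 4 also had the lowest 75th percentile of intensity, 831 against 878, 932 and 1237 on replicates 1 to 3, and the part of that in these calls was not tested.

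Trim25, the ubiquitin ligase that activates RIG-I, had 2 detected probes that moved differently. The brighter probe was at 1.98, 2.29, 2.30 and 1.66, a span of 0.64 or 1.56-fold (unadjusted p = 0.0164, adjusted p = 0.612, limma variance test). Its deviations from its own mean were -0.08, 0.24, 0.24 and -0.40, while those of the other probe were 0.07, -0.06, -0.07 and 0.06. The low value on replicate 4 was thus seen with 1 probe of 2.

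The induced effectors were detected for 17 of 19 measured genes, against 51.0% of all named genes, and the labels name no added interferon. Isg15, a ubiquitin-like protein that is joined to other proteins after interferon, was at 0.32, -0.02, -0.10 and -0.16. Mx1, a GTPase that blocks influenza virus, was at -0.36, -0.48, -0.57 and -0.65, and its relative Mx2 was at 3.15, 3.20, 3.30 and 3.18. Rsad2, the antiviral enzyme viperin, was at -0.72, -1.04, -0.73 and -1.01. Isg20, an RNA-degrading exonuclease, was at -1.63, -1.69, -1.73 and -1.59. The values of Isg15 and Mx1 were highest on replicate 1, while Mx2 was lowest there.

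The listed genes of the oligoadenylate synthetase family, whose active enzymes make the messenger that turns on RNase L, were all detected. Oas1a was at 0.45, 0.19, 0.03 and 0.01, and Oas1b at 4.00, 3.89, 3.72 and 4.05. Oas1a and Oas1b belong to a family of close copies, so a probe of one may also take up RNA of another; probe sequences were not used here. Oas2 was at -4.85, -4.94, -4.78 and -4.93. Oas3 was at -4.11, -3.45, -4.20 and -4.19, with replicate 2 above the others, and Oasl at -3.45, -3.74, -3.87 and -3.03. Oas3 and Oasl lie at the dim end, where the spread of all genes is wider, and neither passed the test (adjusted p = 0.995 and 0.969, limma variance test).

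Among the genes of the IFIT family, which bind viral RNA, Ifit2 was at -1.92, -1.87, -1.88 and -1.67 and Ifit3 at -4.24, -4.53, -4.27 and -4.35. Ifit1 was not detected, with intensities of 5.68, 5.16, 4.96 and 15.8. Ifitm3, a membrane protein that blocks viral entry, was not detected either, at 8.45, 7.21, 7.53 and 5.73, and its promoter holds both an ISRE core and a GAS match. Of the guanylate-binding proteins, which attack vacuoles that hold microbes, Gbp2 was at 0.90, 0.98, 0.98 and 0.97 and Gbp5 at -3.13, -3.63, -3.46 and -2.84. Gbp2 had the smallest SD of the 41 detected genes (0.039, n = 4). Ifi27, a mitochondrial protein, was at 3.19, 3.33, 3.08 and 2.98, and Ifi44 at -0.32, -0.56, -0.52 and -0.65.

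Of the feedback genes, Usp18, the protease that removes ISG15 and blocks the type I receptor, was at 2.08, 2.09, 2.00 and 2.06, a span of 0.09. Socs3, an inhibitor of cytokine receptors that signal through STAT3, was at 1.03, 1.21, 1.26 and 0.77 with its brighter probe. That probe was lowest on replicate 4 (adjusted p = 0.917, limma variance test). The deviations of the dimmer Socs3 probe from its own mean were -0.10, 0.17, -0.13 and 0.06. The low value on replicate 4 was thus seen with 1 Socs3 probe of 2. Socs1, the inhibitor of Janus kinases that acts on both interferon types, was well above background on replicate 2 alone, with intensities of 12.9, 50.4, 5.10 and 5.17. On replicate 2, of 26 spots well above background within 3 rows and columns of the Socs1 spot, 4 were also more than 1 (log2) above the median of the other arrays, the farthest by 11.49. Whether those neighbours bear on the Socs1 value was not tested.

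The spread between the arrays was that of other genes, with 1 exception. The 41 detected genes had a median SD of 0.139, against 0.144 over the 8455 detected genes with a value on every array, and both sets had a median span of 0.32. The SD of 22 of them lay under the median of all genes and that of 19 over it. The highest and lowest array differed by more than 2-fold for 1 of the 41 genes, Bst2, against 3.26% of all genes tested. In the limma variance test, which sets the variance of a gene against that of genes of the same signal, 3 of 41 had an unadjusted p under 0.05 (Bst2, Irf7 and Trim25), against 6.29% of all genes. After Benjamini-Hochberg adjustment over all 8455 genes, 1 of 41 passed, Bst2, against 0.237% of all genes. By role the median SD ran from 0.115 for the kinases to 0.227 for the receptor chains, over 3 genes each.

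**Figure D3:**
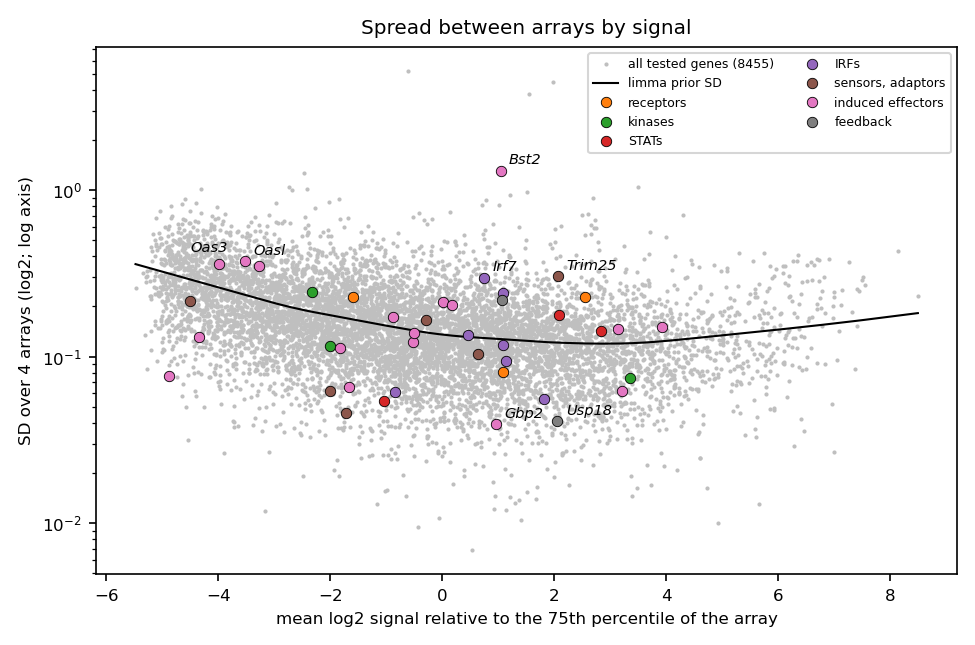
SD over the 4 arrays (log2, log axis) against the mean log2 signal relative to the 75th percentile, for the 8455 tested genes (grey) and the 41 detected interferon genes (coloured by role), with the SD that limma fitted for each signal as a line. Bst2 lies far above the line with an SD of 1.31, and Gbp2 and Usp18 lie below it.

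Bst2, or tetherin, which ties budding viruses to the cell surface, was high on replicate 3 alone. It was at 0.47, 0.34, 3.01 and 0.35 on replicates 1 to 4, a span of 2.66 or 6.34-fold, and 3 arrays lay within 0.12 of each other (adjusted p = 0.00106, limma variance test). The probe was printed as 2 spots far from each other, in rows 99 and 270 of the array, and both showed it. On replicate 3 the spots had intensities of 10028 and 9840, against 1237 and 1189 on replicate 1, 1215 and 1149 on replicate 2, and 1063 and 1057 on replicate 4. The SD between the spots of 1 array was at most 0.057 (log2), against an SD of 1.31 between the arrays.

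The surroundings of the Bst2 spots were not bright on replicate 3. Within 3 rows and columns, 22 and 28 spots were well above background, and their median difference from their own levels on the other arrays was -0.08 and -0.04 (log2). The farthest of these neighbours was 0.77 and 0.59 above, and 0 were more than 1 above, while the Bst2 spots were 2.64 and 2.65 above. Neither spot carried an outlier flag on any array. Bst2 had 1 named probe, so no second probe could be set beside it. The call rests on replicate 3: without that array the span was 0.12 and the adjusted p 0.995 (limma variance test).

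**Figure D4:**
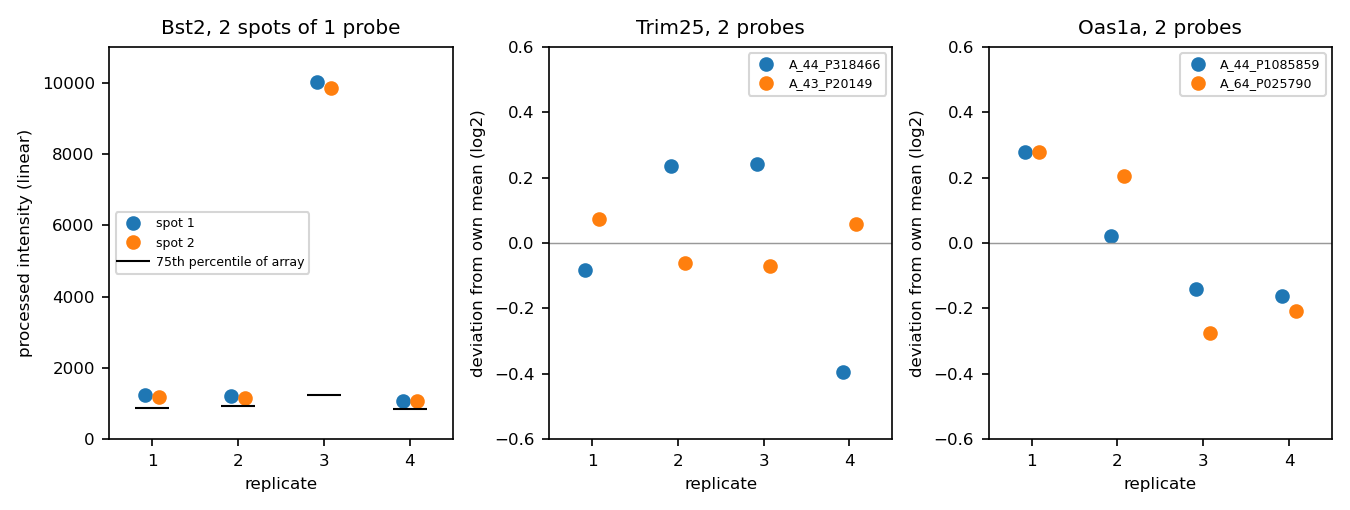
Left, linear intensities of the 2 Bst2 spots on each array, with the 75th percentile of the array as a bar. Middle and right, deviations of the 2 probes of Trim25 and of Oas1a from their own means (log2). The Bst2 spots lie together at 10028 and 9840 on replicate 3, the Trim25 probes part on replicate 4, and the Oas1a probes are both highest on replicate 1.

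Other interferon genes did not follow Bst2 on replicate 3. On that array 14 of the other 40 detected genes were above their own mean, against 42.1% of all genes, and 16 of 40 had their lowest value there, against 36.7% of all genes. The median deviation of these 40 genes on replicate 3 was -0.05, and that of all genes -0.03. The other genes with overlapping ISRE cores that were detected, Oas1a and Oas1b, were at 0.03 and 3.72 there, below their own means of 0.17 and 3.92.

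Replicate 1 held the highest value of 14 of the 41 genes (34.1%), against 16.4% of all genes tested. These were Isg15, Mx1, Oas1a, Ifit3, Rsad2, Ifi44, Irf1, Irf7, Irf9, Stat2, Stat3, Dhx58, Adar and Sting1. Replicate 1 was the lowest array for 4 of the 41 genes (9.76%), against 24.5% of all genes. Replicates 2, 3 and 4 were the highest array for 8, 8 and 11 of the 41, against 26.2%, 19.6% and 37.8% of all genes, and replicates 2 and 4 the lowest for 9 and 12, against 17.4% and 21.3%. Of the 17 detected effectors, 12 were above their own mean on replicate 1, against 43.6% of all genes. Their median deviation was 0.07, against -0.02 over all genes. Of the other 24 detected members, 13 were above their own mean there. Replicate 1 was the highest array for 6 of the 17 effectors and 8 of the 24 others. None of the 14 genes passed the limma variance test alone, and no test was made of them as a group. The count depends on scaling. With no scaling, where replicate 3 is brighter as a whole, 0 of the 41 genes were highest on replicate 1, against 3.15% of all genes. In that setting 6 of 17 effectors were above their own mean on replicate 1, against 13.8% of all genes. The distance of the median effector from the median of all genes on replicate 1, which scaling by a constant cannot change, was 0.087, and it was 0.043 after normexp background correction.

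**Figure D5:**
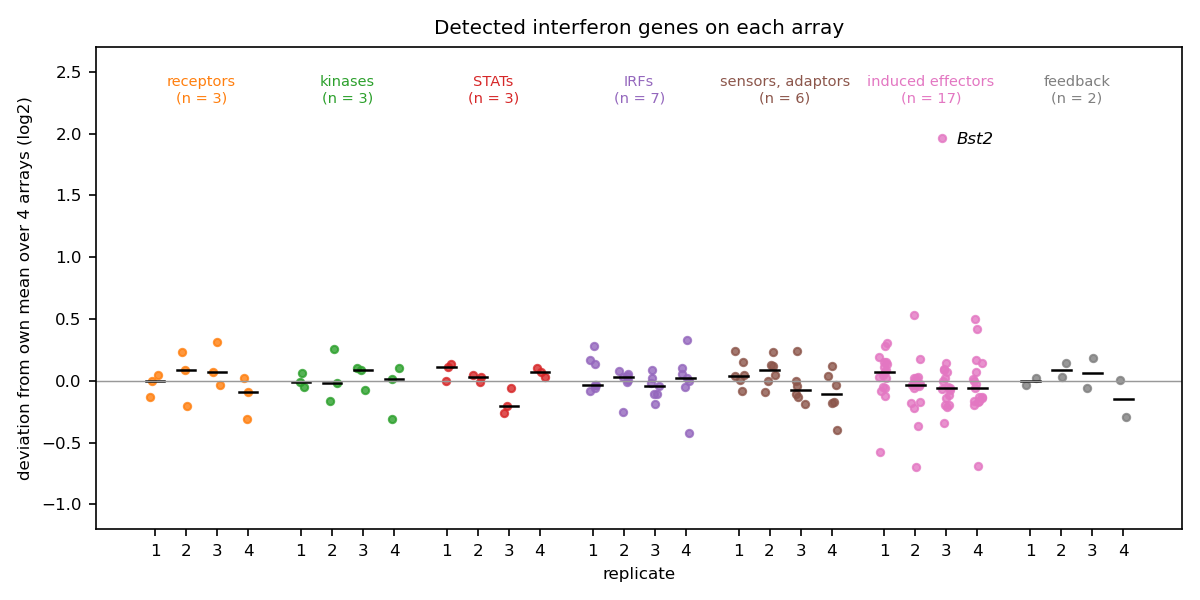
Deviation of each detected interferon gene from its own mean over the 4 arrays (log2), by role and replicate, with the median of each role as a bar. Most deviations lie within 0.5 of 0, Bst2 stands at 1.96 on replicate 3, and the effectors have their highest median, 0.07, on replicate 1.

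Genes with several probes show how far these small shifts repeat. In 9 of the 41 genes every one of several probes was detected, and in 4 of these 9 the probes had the same highest array: Ifi44, Irf9 and Oas1a on replicate 1, and Tyk2 on replicate 2. In 3 of the 9 they had the same lowest array (Ifi44, Irf3 and Tyk2). Among all 1628 genes of this kind, the brightest pair of probes had the same highest array in 39.4% and the same lowest in 37.6%. In Eif2ak2, Irf3, Jak1, Socs3 and Trim25 the probes had different highest arrays. The deviations of the Oas1a probes were 0.28, 0.02, -0.14 and -0.16 for one and 0.28, 0.20, -0.27 and -0.21 for the other. Those of the Ifi44 probes were 0.19 and 0.46 on replicate 1 and -0.14 and -0.36 on replicate 4. Those of the Tyk2 probes were 0.26 and 0.37 on replicate 2 and -0.31 and -0.25 on replicate 4. The largest distance between the deviations of a pair ran from 0.116 for Tyk2 to 0.453 for Trim25 (log2), beside a median span of 0.32 for the 41 detected genes.

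Repeated spots gave the technical spread within an array for further genes. The brighter Irf3 probe was printed as 10 spots, whose SD was 0.059 to 0.118 on the 4 arrays, beside an SD of 0.094 between arrays. The other Irf3 probe, a single spot, had an SD of 0.270 between arrays. The brighter Socs3 probe was also printed as 10 spots, whose SD was 0.058 to 0.099, beside 0.219 between arrays. The other Socs3 probe, a single spot, had an SD of 0.136 between arrays. The SD of single spots is not on the scale of the SD of array means over 10 spots, so these values stand side by side with no test.

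In 4 of the 13 interferon genes with several probes, the probes differed in detection, as they did in 721 of 3658 such genes on the array (19.7%). These were Irf2, Irf4, Rsad2 and Sting1. The second probes of Irf2, Rsad2 and Sting1 passed the background flag on 0 arrays, with intensities from 13.2 to 19.0, 9.29 to 20.1 and 6.40 to 16.7. That of Irf4 was above background on replicates 3 and 4 only. The values given above for these genes are those of the brighter probe.

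A list of 70 further interferon pathway genes gave a like picture. Of these, 56 had a named probe, and 48 were detected (85.7%), against 51.0% of all named genes. A further 4 were partly detected and 4 were not, against 6.43% and 42.6% of all named genes. Among the interferons in it, Ifna4, an interferon alpha, was well above background on 2 arrays, with intensities of 13.7, 24.7, 18.2 and 22.4, and Ifnk was not detected. Tbk1, the kinase that activates IRF3, was above background on 3 arrays, with intensities of 51.7, 42.7, 80.5 and 20.6, and again not on replicate 4. Of the chemokines drawn out by interferon gamma, Cxcl10 was detected with intensities of 181, 164, 268 and 141, Cxcl9 was detected with intensities of 21.9, 39.8, 24.9 and 21.5, and Cxcl11 was above background on replicate 3 only, at 33.9. Ly6e and the lambda receptor chain Ifnlr1 were not detected, and Gbp4 was above background on 1 array.

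The spread of the further genes was also near that of all genes. Their median SD was 0.134, against 0.144 over all genes tested, with 25 of the 48 under that median and 23 over it. More than 2-fold was spanned by 1 of 48 (Cxcl9, span 1.08) against 3.26% of all genes. In the limma variance test 0 passed, against 0.237% of all genes. An unadjusted p under 0.05 was found for 3 of 48 (Ifi47, Igtp and Parp9) against 6.29% of all genes, and the smallest adjusted p was 0.697, for Ifi47. Replicate 1 was the highest array for 14 of the 48 (29.2%), against 16.4% of all genes. Replicate 2 was the highest for more, 16 of the 48 (33.3%), against 26.2%. Replicates 3 and 4 were the highest for 6 and 12, against 19.6% and 37.8%. The immunoproteasome subunits Psmb9 and Psmb10 were highest on replicate 1, but Psmb8 on replicate 2. The GTPase Igtp and the membrane protein Ifitm1 were highest on replicate 1, while Ifitm2, a relative of Ifitm1, was lowest there. Among the detected genes of both lists, Bst2 was thus the 1 gene whose spread passed the test.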

How the data were processed

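RNA of NR8383 cells was measured on 4 one-colour arrays. The deposited values are linear intensities of spots from Agilent Feature Extraction 11.0.1.1, per the file headers and the submitters' processing notes, background-handled by that program and not scaled between arrays. Flags of another kind (0 or 1), also in the deposited files per the file headers, mark saturated or outlying spots, and spots that are well above background or positive and significant. Per the labels' protocols, 100 ng of RNA with an integrity number above 7.5 was labelled with cyanine 3. Only gene spots (58717 spots of 45598 probes) were used. Spots of 1 probe were averaged as log2 without outlier-flagged spots (1.11% to 1.45%), and the array's 75th percentile over gene spots was subtracted. Accessions without version matched 21109 probes (46.3%) to 1 RefSeq gene each. The array's own build differs from GRCr8, so only promoter coordinates are given. Where a gene had several probes, the one with the highest mean gave its value. A probe with several spots counted as above background when more than 50% of its unflagged spots did.

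Spread was tested with limma 3.58.1 in R 4.3.3: an intercept model, with each gene's residual variance set against the eBayes prior (trend, robust) in an upper-tail F test, Benjamini-Hochberg adjusted over 8455 genes, threshold 0.05. On simulated data with 1 of 4 arrays shifted, the test recovered 10% of genes shifted by 1 and 64% of those shifted by 1.5. It recovered 96% of those shifted by 2.5 and 100% by 4 (log2, 50 genes each among 8455), so a shift of 1 was mostly missed. Of the genes without a shift, 4 also passed. The noise was drawn from the fitted prior that the test assumes, and all shifted genes were in the same run. Recovery of a gene shifted alone was therefore not measured. Python 3.11.15, numpy 2.4.6, pandas 2.3.3 and matplotlib 3.10.9 did the rest. The genes, lists and rules were chosen with earlier results of these data known. Values on every array were to be given for genes with an unadjusted p under 0.05 or a span over 1 (log2), for partly detected genes, for genes whose probes differed in detection, and for the widest and narrowest span of each role; the other members were then given too. Of the further pathway genes, those that are neither partly detected nor over 1 in span were named after their values were seen. Alternatives were other scalings, background correction, detection rules, probe rules, the prior, and leaving out each array; the percentile over averaged probes, and every alternative for the counts on replicate 1, were added after seeing the data. Some genes outside the 53 are not reported here. The number of arrays limits the precision.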

Additional observations from a re-analysis of the deposited data

Results flagged for a closer look

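For 5 of the 54 probes of the interferon genes that were well above background on at least 1 array, 1 array stood apart from the other 3. Here the gap to the nearest array was taken as a share of the whole range. It passed the critical value of Dixon's test for 4 values, which chance does in about 1 of 20 groups. Among all 8455 tested genes that value was passed by 6.20%. The sets differ: the 8455 count 1 probe per gene, for genes detected on all 4 arrays. The 54 also hold second probes and probes above background on only some arrays, such as that of Zbp1. The gap was 0.954 of the range for Bst2, which was high on replicate 3. It was 0.900 for Gbp2, where replicate 1 was low by 0.07 (log2) within a range of 0.08. It was 0.886 for Oas3, a dim gene that was high on replicate 2, and 0.839 for Stat3, which was low on replicate 3. It was 0.907 for Zbp1, which was low on replicate 4, where it was not well above background. Of these genes, Bst2 alone passed the limma variance test.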

How the results depend on the processing

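The count of detected interferon genes lay between 41 and 44 under every alternative tried. It was 43 when judged by negative controls, on 3 of 4 arrays or without replicate 4 (Ifih1 and Zbp1 added). It was 44 under the positive and significant flag, where Irf8 was added as well as Ifih1 and Zbp1. Of all 16581 named genes, 8456 were detected in the main setting and 10013 under that flag. The number was 9130 by negative controls, 8689 on 3 of 4 arrays and 8533 without replicate 4. Bst2 passed the limma variance test in 14 of 16 alternatives (adjusted p from 1.1e-15 to 0.0095). Without trend and robust fitting its adjusted p was 0.851 (limma variance test). In that setting 0 of the 41 interferon genes passed (1 with an unadjusted p under 0.05), against 4 of all genes. Without replicate 3 the adjusted p of Bst2 was 0.995 (limma variance test), and 0 of the 41 passed (4 unadjusted), against 3 of all genes. Leaving out each array in turn gave 0 to 1 interferon genes passing, against 3 to 63 of all genes. Of the interferon genes, 0 to 1 then spanned over 2-fold, against 130 to 229 of all genes. The adjusted p for Bst2 ran from 3.5e-07 to 0.995 (limma variance test). With no scaling the median SD was 0.269, against 0.267 over all genes. In that setting 4 of the 41 genes spanned over 2-fold (Irf7, Bst2, Trim25 and Socs3), against 833 of all 8455 genes. Of 17 effectors, 6 were above their mean on replicate 1, against 13.8% of all genes. On that array 0 genes of either list were highest, against 3.15% of all genes. The count over 2-fold was 2 (Bst2 and Ifih1) with detection on at least 3 of 4 arrays, against 369 of all genes tested. It was 2 (the same genes) under the positive and significant flag, against 1197. When judged by negative controls it was 2 (again the same genes), against 561. With no filter on dim probes it was 5, against 3907. With an array left out, 17 to 21 of the 41 genes and 15 to 24 of the 48 further genes were highest on replicate 1 among 3 arrays, against 19.5% to 30.3% of all genes. Of 228 spans of 21 genes under the alternatives, 45 moved, at least 1 for each gene (16 with no scaling, 19 with an array left out). The cause of these shifts was not tested. Dim genes are measured least well, since their signal lies close to background. No paired analysis was possible because the series holds 1 group.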
